A study of Homo sapiens with 39 samples.

Results

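Caveolae are small flask-shaped pits of the plasma membrane. Their coat is made of caveolins, membrane-embedded proteins that assemble into oligomers, and of cavins, soluble proteins that are recruited to the caveolin scaffold and bend the membrane. EHD2 is an ATPase at the neck that holds a caveola at the surface, and PACSIN2 is an F-BAR protein that helps to shape it. Caveolae are most abundant in endothelial cells, adipocytes, fibroblasts and smooth muscle, and CAV1 is variably expressed in colorectal cancer cells.

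The genes described here are 7 of 45435 gene rows: the caveolins CAV1 and CAV2, the cavins CAVIN1, CAVIN2 and CAVIN3, and the accessory genes EHD2 and PACSIN2. They were chosen by name, with earlier results on these data known: CAVIN2 stood out there as lower in many lines, so comparisons of the 7 genes with the parental cells are described by their fold change, its error and whether it meets the rule for a call, and nothing is supported with them. All 7 were found in every table and passed the filter of a mean of at least 1 TPM (a transcript abundance that is scaled for transcript length and for the library total), as did 15003 rows in all.

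The RNA came from HCT116, a human colorectal cancer cell line, as 39 libraries in 13 groups of 3. As parental cells served the Flp-In T-REx host, which has no construct. Each other group was 1 stable line carrying 1 of the 12 isoforms of the transcription factor HNF4A, fused to GFP, under a doxycycline-inducible promoter. All groups, the parental cells included, were given 2.5 µg/ml doxycycline for 48 h without selection antibiotics. Blasticidin had been in the medium of all cells before induction, together with zeocin for the host and with hygromycin B for the isoform lines. No line with GFP alone was analysed here, and each isoform is represented by 1 line, so isoform, GFP, line derivation and the earlier antibiotic cannot be told apart. The labels do not say that the 3 libraries of a group came from separate cultures, so the p-values below measure the spread between libraries, which may be technical.

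The isoforms share most of the protein and differ at its ends. Per the standard nomenclature (not the labels), isoforms 1-6 start from promoter P1 and isoforms 7-12 from promoter P2, isoforms 4-6 contain exon 1B, isoforms 2, 5, 8 and 11 have an insertion of 10 residues, and isoforms 3, 6, 9 and 12 have a shortened C-terminus. HNF4A was at 31.5 TPM ± 0.589 (SD, n = 3) without a construct and between 614 and 1071 TPM on average in the lines. The isoform 3 line stood apart in its spread, with HNF4A at 407, 833 and 772 TPM in its libraries. Between 27892 and 30553 genes were above 0 TPM per library. Of 6 colon epithelial markers, 5 had a mean of at least 1 TPM (EPCAM, KRT8, KRT18, KRT19 and CDH1), and the 6 summed to between 2476 and 5581 TPM.

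CAV1 and CAV2 are neighbours on chromosome 7, on the plus strand. In GENCODE 29 (GRCh38), CAV2 extends from 116287380 to 116508541 and CAV1 from 116524785 to 116561184, which leaves a gap of 16243 bases. CAVIN2 lies alone on chromosome 2, from 191834302 to 191847255 on the minus strand, and CAVIN1 on chromosome 17, from 42402452 to 42423517 on the minus strand. The other 3 genes are on chromosomes 11 (CAVIN3), 19 (EHD2) and 22 (PACSIN2). The 250 bases upstream of a RefSeq start (GRCh38.p14) are shown 5′ to 3′ for the 3 genes whose levels differed most between lines. They set the GC-rich starts of the caveolin pair beside that of CAVIN2. Capitals mark GGGCGG (the GC box) and GGAATG (a TEAD-type motif) on either strand. The windows are chr7:116524759-116525008 (plus strand) for CAV1, chr7:116499488-116499737 (plus strand) for CAV2 and chr2:191847089-191847338 (minus strand) for CAVIN2. The CAV1 and CAVIN2 windows overlap the start of the GENCODE model of their gene and extend upstream of it, and the CAV2 window lies inside its model. RefSeq gives 3 windows for CAV1 and 2 for CAV2, of which the first listed is shown, and 1 for CAVIN2.
CAV1: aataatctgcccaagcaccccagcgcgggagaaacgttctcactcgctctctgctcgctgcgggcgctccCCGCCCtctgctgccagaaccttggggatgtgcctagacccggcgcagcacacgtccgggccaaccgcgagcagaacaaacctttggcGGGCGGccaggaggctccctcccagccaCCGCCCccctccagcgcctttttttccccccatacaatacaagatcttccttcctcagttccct
CAV2: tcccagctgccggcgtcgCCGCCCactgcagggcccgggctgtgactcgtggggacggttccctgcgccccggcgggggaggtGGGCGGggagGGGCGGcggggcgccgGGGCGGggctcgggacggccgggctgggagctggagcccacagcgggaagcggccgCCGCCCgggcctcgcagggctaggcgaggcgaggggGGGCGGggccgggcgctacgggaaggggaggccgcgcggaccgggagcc
CAVIN2: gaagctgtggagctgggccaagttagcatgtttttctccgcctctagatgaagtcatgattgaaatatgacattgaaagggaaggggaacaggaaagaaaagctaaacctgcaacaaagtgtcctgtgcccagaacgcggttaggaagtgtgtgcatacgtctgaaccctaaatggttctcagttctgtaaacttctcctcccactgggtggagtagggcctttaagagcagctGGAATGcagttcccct

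The CAV1 window had 63.6% G and C with 3 GC boxes, and the CAV2 window had 83.2% with 6. The windows not shown had 63.2% and 73.2% with 3 and 2 GC boxes for CAV1, and 70% with 3 for CAV2. The CAVIN2 window had 48% and no GC box, but 1 GGAATG, close to the start. GGAATG was also found in 4 of the 6 windows of PACSIN2, and a GC box in another of them and in the 1 window of EHD2. The median over all 35116 windows was 58%. GC boxes were found in 42.6% of all windows and GGAATG in 11.9%. The letters CAAAGTCCA, CAAAGTTCA or CAAAGGTCA, which HNF4A is known to bind, occurred in 0.911% of all windows and in no window of these genes, and TATAAA occurred in 10.7% and likewise in none. Both strands were read, and no match of a motif overlapped another in the printed windows. RefSeq windows were found for 5 of the 7 genes.

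CAV1, the principal structural protein of caveolae outside muscle, was the most abundant of the 7 in the parental cells and the gene with the widest range in TPM. The parental libraries had 214, 214 and 204 TPM, a mean of 211 TPM ± 5.77 (SD, n = 3). The isoform 4 line had 71.3, 76.8 and 76.9 TPM, and the isoform 5 line had 88.7, 80.9 and 74.5 TPM. The isoform 9 line had 333, 355 and 362 TPM, and the isoform 11 line had 325, 331 and 336 TPM. So the lines of isoforms 4 and 5 were below the parental cells and those of isoforms 9 and 11 above, with no overlap between libraries. Their means were 0.356, 0.386, 1.66 and 1.57 times the parental mean. Such a lack of overlap was common: over the 12 lines, 26.1% of all tested gene values were wholly below the parental libraries and 19% wholly above. The isoform 7 line, at 298 TPM ± 14.8 (SD, n = 3), was also above, and the isoform 6 line, at 141 TPM ± 5.89 (SD, n = 3), below. In the order of means, isoform 9 was followed by 11, 7, 8, 3, the parental cells, 1, 2, 12, 10, 6, 5 and 4. The highest mean was 4.66 times the lowest. Of the 12 neighbouring pairs in this order, 5 had overlapping libraries: 9 and 11, 8 and 3, 12 and 10, 10 and 6, and 5 and 4.

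CAV2, which forms mixed oligomers with CAV1, had about the same order at a lower level. Its parental libraries had 98.1, 100 and 91 TPM, a mean of 96.5 TPM ± 4.93 (SD, n = 3). The isoform 4 line had 36.1, 40.8 and 39 TPM, the isoform 5 line 43.6, 43.3 and 40 TPM. At the top, the isoform 9 line had 143, 157 and 158 TPM and the isoform 11 line 144, 158 and 154 TPM. The lines of isoforms 4 and 5 were again the lowest and those of isoforms 9 and 11 the highest, and 7 of the 12 neighbouring pairs overlapped. The ratio of CAV1 to CAV2 TPM was between 1.71 and 2.33 in the 39 libraries, with a median of 2.1. Its group means went from 1.81 in the isoform 2 line to 2.29 in the isoform 9 line, with 2.19 ± 0.0553 (SD, n = 3) in the parental cells. Across the 13 group means on the log2(TPM + 1) scale, Pearson's r between CAV1 and CAV2 was 0.988. Across the deviations of the 39 libraries from their group means it was 0.831, where both genes share the library.

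**Figure D1:**
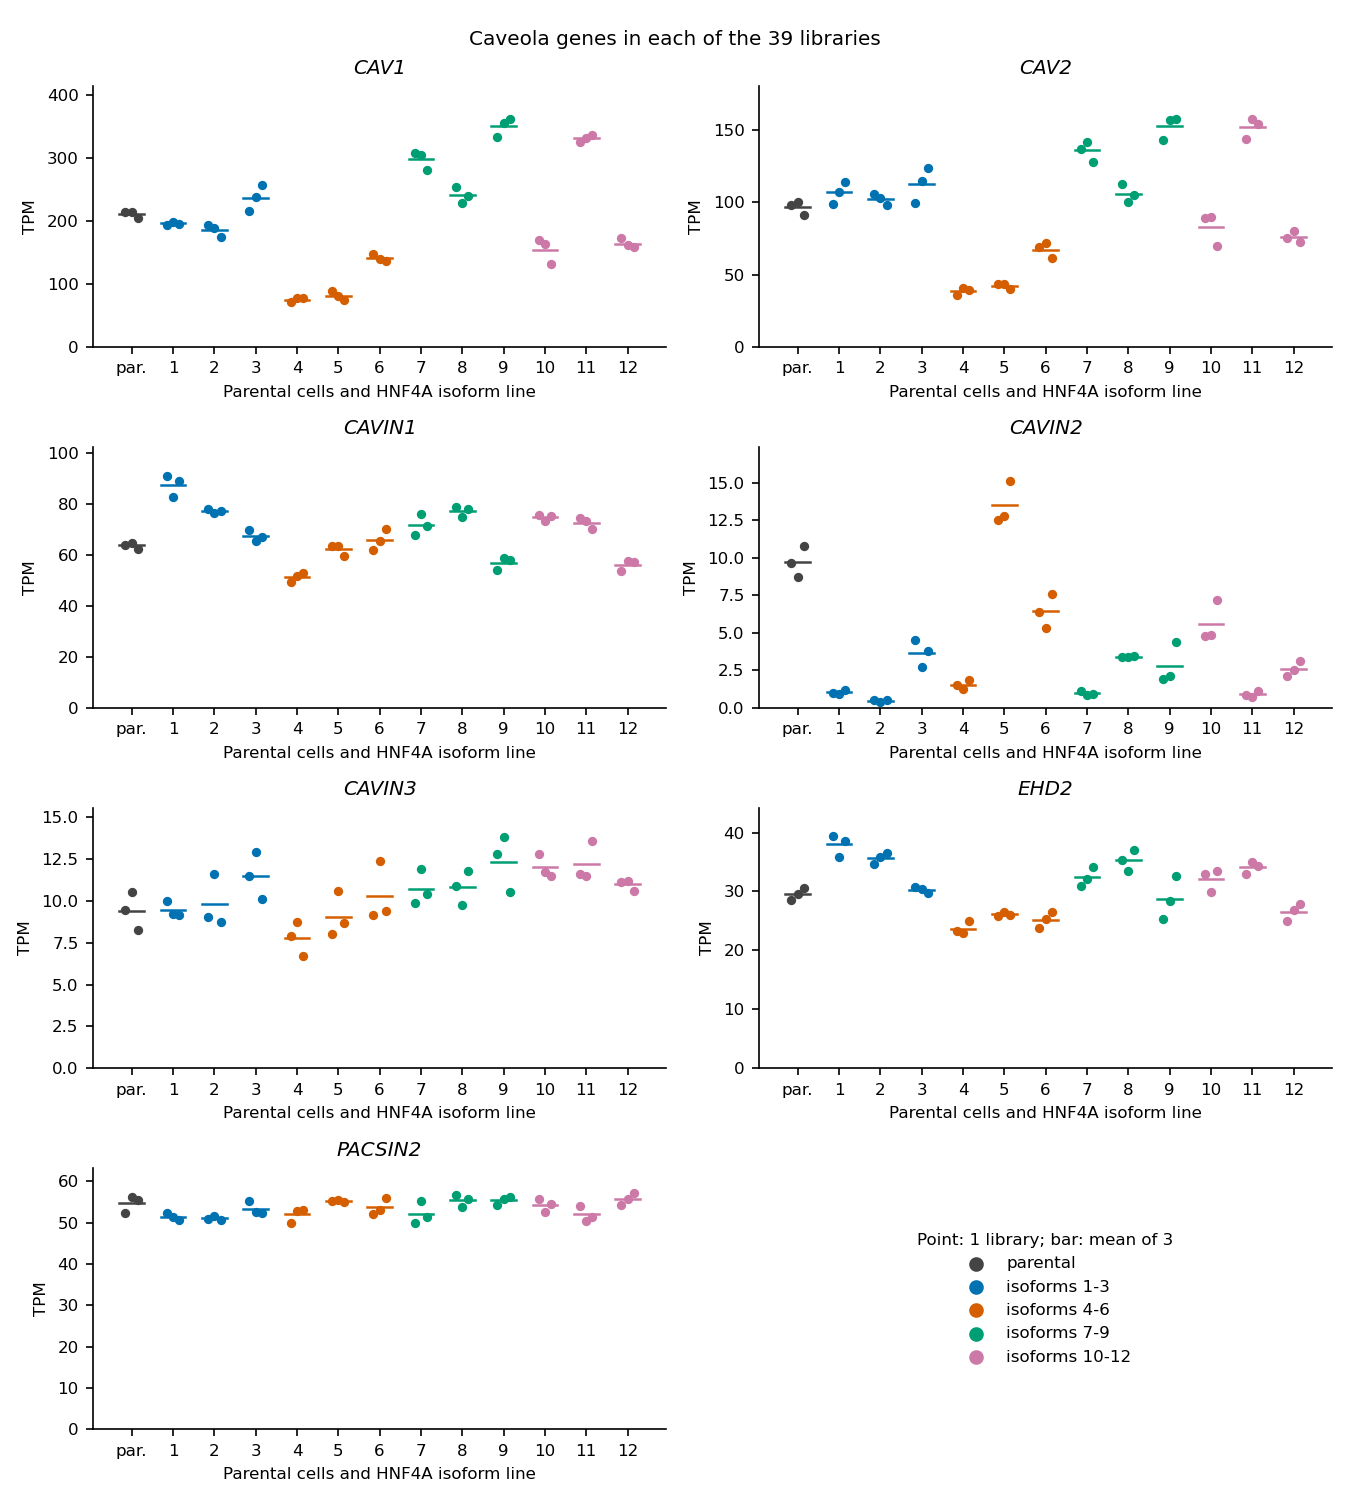
TPM of each of the 7 caveola genes (y axis, from 0) in the parental cells and the 12 isoform lines (x axis). Points are single libraries and bars the mean of 3. CAV1 and CAV2 are lowest in the lines of isoforms 4 and 5 and highest in those of isoforms 9 and 11, CAVIN2 is highest in the isoform 5 line, and PACSIN2 stays between 50 and 57.1 TPM.

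All 12 comparisons with the parental cells share the same 3 parental libraries. In bulk RNA, fewer expressing cells and less RNA per cell cannot be told apart. On the log2(TPM + 1) scale, on which all fold changes below were fitted, CAV1 differed from the parental cells by -1.48 ± 0.071 (SE) in the isoform 4 line and by -1.37 ± 0.071 in the isoform 5 line. CAV2 differed by -1.30 ± 0.082 (SE) and -1.17 ± 0.082. Calls needed an adjusted p under 0.05 together with a log2 fold change of 1 or more in size, and both caveolins were called lower in these 2 lines. In the isoform 4 line 0.313% of all tested genes were called lower, and in the isoform 5 line 0.14%. In the lines of isoforms 7, 9 and 11 the CAV1 values were 0.50, 0.73 and 0.65 and the CAV2 values 0.49, 0.66 and 0.65, none of which reached the fold needed for a call. All libraries were below all parental libraries for CAV1 in 7 lines and above in 5, where over the 12 lines 26.1% of all tested gene values were below in this sense and 19% above. For CAV2 it was 5 lines below, 3 above and 4 with overlap. In the isoform 1 line the CAV1 value of -0.10 was that of the median gene, which was at -0.107. After median-of-ratios scaling it was 0.00. In the other 11 lines the median gene was between -0.09 and 0.012.

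CAVIN1 is the cavin required for caveola formation. Its parental libraries had 63.9, 64.7 and 62.1 TPM. The isoform 1 line was the highest, with 90.9, 82.5 and 88.7 TPM, and the isoform 4 line the lowest, with 49.3, 51.5 and 52.6 TPM. Neither line overlapped the parental cells, and the highest mean was 1.71 times the lowest. The values were 0.45 ± 0.045 (SE) for the isoform 1 line and -0.31 ± 0.045 for the isoform 4 line on the log2(TPM + 1) scale, and CAVIN1 was called in 0 lines. All libraries were above the parental cells in 7 lines and below in 3, beside the 19% above and 26.1% below over all tested gene values. In the isoform 5 line, where both caveolins were called lower, CAVIN1 was at 62.1 TPM ± 2.26 (SD, n = 3), beside 63.6 TPM ± 1.34 in the parental cells. The order of CAVIN1 thus differed from that of the caveolins: the isoform 9 line, the highest in CAV1, was the third lowest, at 56.8 TPM ± 2.43 (SD, n = 3).

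CAVIN2, also known as SDPR, binds phosphatidylserine and promotes membrane curvature. The parental libraries had 9.66, 8.7 and 10.8 TPM, a mean of 9.71 TPM ± 1.03 (SD, n = 3). The isoform 2 line had 0.476, 0.391 and 0.483 TPM, the lowest of all. The isoform 5 line had 12.5, 12.8 and 15.1 TPM, the highest of all, and every library of it was above every parental library. In the other 11 lines every library was below. Over the 12 lines, 26.1% of all tested gene values were below in this sense and 19% above. Means of about 1 TPM were found in the lines of isoforms 1 (1.02 TPM ± 0.156), 7 (0.95 TPM ± 0.137) and 11 (0.91 TPM ± 0.206; SD, n = 3). The lines of isoforms 6 and 10 were the least reduced, at 6.42 TPM ± 1.11 and 5.61 TPM ± 1.36 (SD, n = 3), and they overlapped each other. In between were the lines of isoforms 3 (3.67 TPM), 8 (3.4 TPM), 9 (2.78 TPM), 12 (2.57 TPM) and 4 (1.52 TPM). The lines of isoforms 3, 8 and 9 each overlapped the next in this order, and the isoform 4 line was apart from those of isoforms 3, 8, 9 and 12.

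CAVIN2 met the rule for a call, always lower, in 9 lines, those of isoforms 1-4, 7-9, 11 and 12. Of all tested genes, 1.78%, 1.37%, 0.153% and 0.313% were called lower in the lines of isoforms 1-4, 0.96%, 0.473% and 0.44% in those of isoforms 7-9, 0.653% in that of isoform 11 and 0.133% in that of isoform 12. In the lines of isoforms 6 and 10, where CAVIN2 was not called, it was 0.153% and 0.313%. This is the pattern for which the gene was chosen and it is not tested again. The log2 fold change went from -2.88 ± 0.17 (SE) in the isoform 2 line to 0.44 ± 0.17 in the isoform 5 line. The mean TPM of the isoform 2 line was 21.6 times below that of the parental cells, and since the pseudocount of 1 exceeds its level, the fitted value moved to -4.16 with a pseudocount of 0.1. In the authors' deposited table CAVIN2 had a log2 fold change of -4.02 in the isoform 2 line, 0.40 in the isoform 5 line and -0.83 in the isoform 9 line. The fit on TPM gave -1.56 for the isoform 9 line, whose libraries had 1.89, 2.1 and 4.36 TPM, and the log2 ratio of the mean TPM values without a pseudocount was -1.80. Whether the authors' fold changes were shrunk is not given in the sources used here, so the sizes from the table and from the fit may not be on the same scale. In the isoform 3 line CAVIN2 was at 4.54, 2.69 and 3.79 TPM. The highest was in the library with the lowest HNF4A level, and without that library the log2 fold change was -1.35 in place of -1.21. The isoform 9 line, next in its spread of HNF4A (808, 974 and 1063 TPM), went the other way. Its highest CAVIN2 value was in the library with the highest HNF4A level. The part of the HNF4A level in these CAVIN2 values was not tested.

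**Figure D2:**
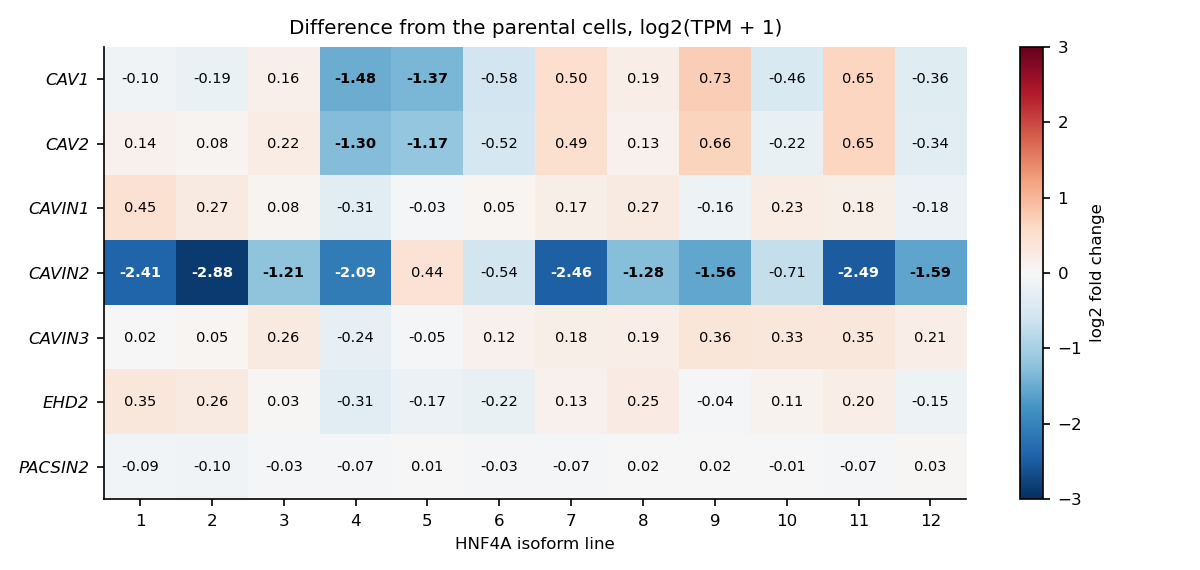
Log2 fold change against the parental cells on the log2(TPM + 1) scale, for the 7 genes (rows) in the 12 isoform lines (columns), 3 libraries per group. Colour and printed number give the same value, and bold marks the 13 values that met the rule for a call: 9 of CAVIN2 and 2 each of CAV1 and CAV2, all lower.

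The remaining 3 genes were called in 0 lines. CAVIN3, which binds CAV1 and protein kinase C delta, had a parental mean of 9.4 TPM ± 1.11 (SD, n = 3) and was between 7.78 TPM (isoform 4 line) and 12.3 TPM (isoform 9 line) in the lines. EHD2 was at 28.6, 29.6 and 30.6 TPM in the parental libraries, 39.4, 35.9 and 38.5 TPM in the isoform 1 line and 23.3, 22.9 and 25 TPM in the isoform 4 line. These are the same highest and lowest lines as for CAVIN1. PACSIN2 had a parental mean of 54.7 TPM ± 2.03 (SD, n = 3) and was between 51.1 and 55.7 TPM on average in the lines. All neighbouring pairs in the order of each of these 3 genes overlapped. Set against the parental libraries, EHD2 was wholly above in 5 lines, wholly below in 4 and overlapping in 3. CAVIN3 overlapped in 9 lines and PACSIN2 in 10. Over all tested gene values 19% were wholly above and 26.1% wholly below. The largest absolute log2 fold changes were 0.36 for CAVIN3, 0.35 for EHD2 and -0.10 for PACSIN2.

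The spread of each gene over the 13 group means was set beside that of all 15003 tested genes. The span from the lowest to the highest group mean on the log2 scale was 3.32 for CAVIN2, 2.21 for CAV1 and 1.96 for CAV2. A wider span was found in 0.4%, 1.46% and 2.36% of all tested genes. For CAVIN1 the span was 0.76, for EHD2 0.66 and for CAVIN3 0.60, which 22.5%, 29.4% and 33.5% of genes exceeded. For PACSIN2 it was 0.12, and 99.4% of genes had a wider one. The median span was 0.46. The 7 genes therefore range from among the most variable to among the least variable expressed genes of these cells. In total 13 of the 84 values of a gene in a line met the rule for a call, all lower, where 0.574% of the values of all tested genes were called lower. Of these, 9 are of CAVIN2, which was chosen for them, and 4 of 72 are of the other 6 genes, so nothing is read from the total. The median fold change of the 7 genes per line was between -0.31 (isoform 4 line, median of all genes -0.032) and 0.20 (isoform 11 line, -0.059).

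**Figure D3:**
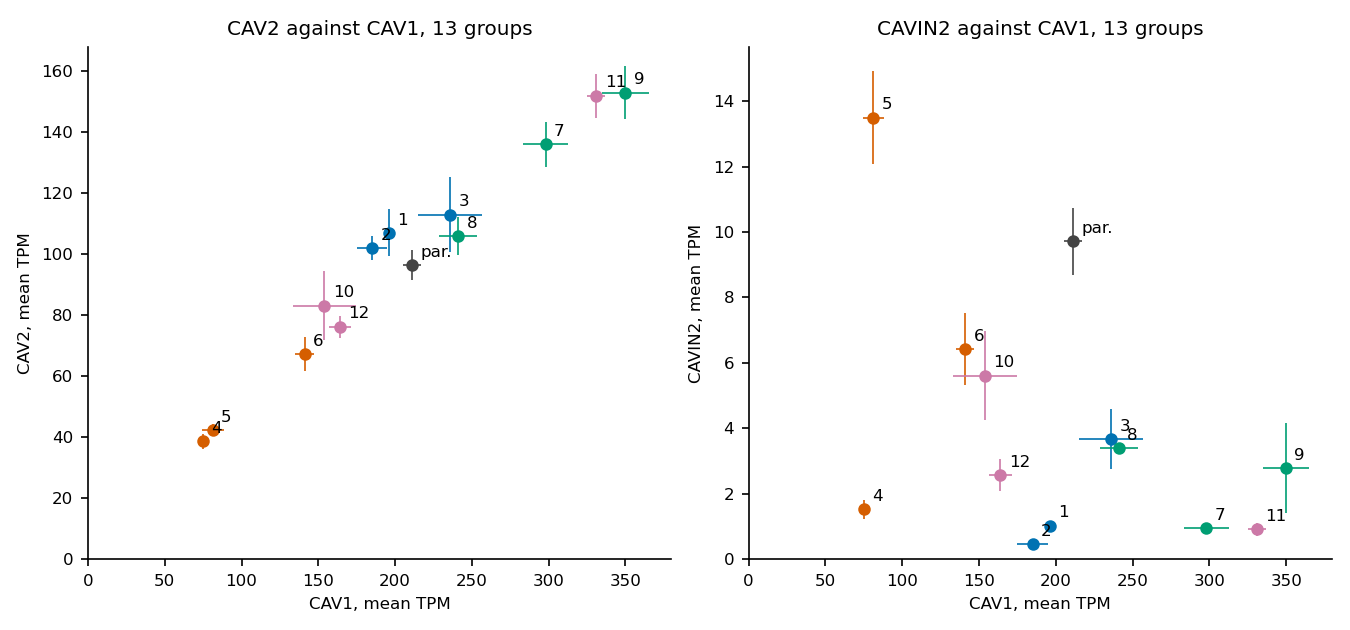
Mean TPM of CAV2 (left, y axis) and CAVIN2 (right, y axis) against mean TPM of CAV1 (x axis) in the 13 groups, with bars of 1 SD over 3 libraries and the isoform number beside each point (par., parental). CAV2 lies along a line with CAV1 (r = 0.988 on the log2 scale), and CAVIN2 does not (r = -0.384): the lines of isoforms 4 and 5 have similar CAV1 means but CAVIN2 means of 1.52 and 13.5 TPM.

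Contrasts between lines use no parental library. They were made for 17 pairs of lines whose isoforms differ in 1 named element, and they were tested for the 6 genes other than CAVIN2. In the pairs of isoforms 10-12 with isoforms 7-9 this element was taken to be the N-terminus. Among the 102 tests there were 6 calls, 4 for CAV1 and 2 for CAV2, beside 1.07% called over all tested genes and all 17 contrasts. By the adjusted p alone, with no minimum fold change, it was 44 of 102, beside 25.3% of all values. Against the parental cells the adjusted p alone was met by 39 of the 72 values of the same 6 genes, beside 30.7% of all values, from which nothing is read. The Benjamini-Hochberg adjusted p-values below are from limma.

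The largest differences in the caveolins were between lines with and without exon 1B. CAV1 was lower in the isoform 4 line than in the isoform 1 line, with a log2 difference of -1.37 ± 0.071 (SE, limma adjusted p = 2.98e-16), and CAV2 had -1.44 ± 0.082 (limma adjusted p = 2.39e-15). In this contrast 4.49% of tested genes were called. In the isoform 5 line against the isoform 2 line, where 4.03% were called, the CAV1 value was -1.18 ± 0.071 (limma adjusted p = 1.3e-14) and the CAV2 value -1.25 ± 0.082 (limma adjusted p = 7.51e-14). In the isoform 6 line against the isoform 3 line, where 0.7% were called, the values were smaller and below the fold for a call: -0.74 for CAV1 (limma adjusted p = 3.47e-09) and -0.73 for CAV2 (limma adjusted p = 5.46e-08). So in all 3 exon 1B contrasts both caveolins were lower in the line with exon 1B. Mean HNF4A was higher in that line each time: 856 against 782 TPM, 852 against 614 TPM and 1071 against 671 TPM. The part of the HNF4A level in these differences was not tested. EHD2 had -0.66, -0.44 and -0.25 in the 3 contrasts, with limma adjusted p-values of 2.32e-10, 6.39e-07 and 0.00304. CAVIN1 had -0.76 (limma adjusted p = 6.84e-15), -0.31 (1.15e-06) and -0.03 (0.67). CAVIN2 went the other way in value, with 0.32, 3.32 and 0.68 ± 0.17 (SE, not tested).

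The other 2 calls of CAV1 were among the P2 isoforms. CAV1 was higher in the isoform 11 line than in the isoform 10 line by 1.10 ± 0.071 (SE, limma adjusted p = 5.54e-12), in a contrast in which 0.2% of tested genes were called. The means were 331 TPM ± 5.75 and 154 TPM ± 20.7 (SD, n = 3). Of the isoform 10 libraries, with 169, 163 and 131 TPM, the last was the lowest, and without it the difference was 0.98 and no longer called. CAV2 had 0.87 ± 0.082 in the same contrast (limma adjusted p = 7.06e-09). CAV1 was lower in the isoform 12 line than in the isoform 9 line, with a difference of -1.09 ± 0.071 (limma adjusted p = 1.32e-12), where 0.54% were called, and CAV2 had -0.99 ± 0.082 (limma adjusted p = 1.81e-10). In the isoform 10 line against the isoform 7 line, where 0.76% of genes were called, CAV1 had -0.95 ± 0.071 (limma adjusted p = 1.61e-11), and in the isoform 11 line against the isoform 8 line, where 0.173% were called, it had 0.46 ± 0.071 (limma adjusted p = 7.55e-05). The 3 contrasts of an isoform 10-12 line with the matching isoform 7-9 line thus did not share a sign.

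The insertion of 10 residues was likewise not tied to a direction. The CAV1 differences were -0.08, 0.11, -0.30 and 1.10 for isoforms 2, 5, 8 and 11 against isoforms 1, 4, 7 and 10, and the CAVIN2 differences were -0.48, 2.53, 1.18 and -1.78 (SE 0.17, not tested). In these 4 contrasts 0.347%, 0.353%, 0.227% and 0.2% of genes were called. With the short C-terminus CAV1 had 0.27, 0.90, 0.23 and 0.10 for isoforms 3, 6, 9 and 12 against isoforms 1, 4, 7 and 10, of which that for isoform 12 had a limma adjusted p of 0.399, while 1.45%, 0.493%, 0.42% and 0.533% of genes were called. CAVIN1 had -0.37, 0.35, -0.33 and -0.41 in these contrasts, all with a limma adjusted p under the threshold and the second with the opposite sign. The P2 isoforms 7, 8 and 9 were contrasted with the P1 isoforms 1, 2 and 3. CAV1 was higher in the P2 line by 0.60, 0.38 and 0.57 (limma adjusted p = 6.39e-08, 6.77e-05 and 7.59e-07), below the fold for a call. CAV2 had 0.35, 0.05 and 0.44, and 1.42%, 1.54% and 0.56% of genes were called. The P2 isoforms 10, 11 and 12 were not contrasted with P1 lines. Their CAV1 means were 154, 331 and 164 TPM, beside 196, 185 and 236 TPM for isoforms 1, 2 and 3. Higher CAV1 was thus not shared by all P2 lines. CAVIN3 and PACSIN2 had no calls among the 17 contrasts, and 1 and 2 adjusted p-values under the threshold.

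**Figure D4:**
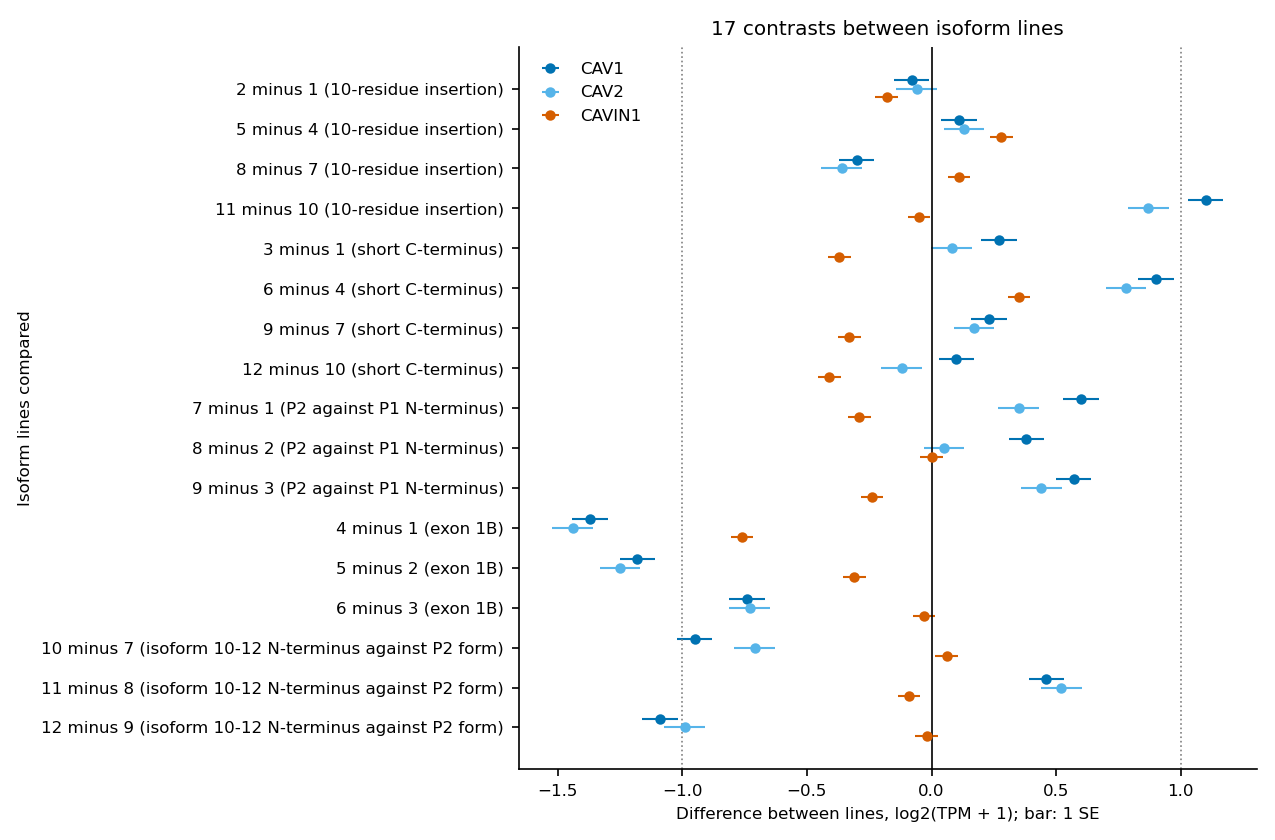
Differences of CAV1, CAV2 and CAVIN1 on the log2(TPM + 1) scale (x axis) in 17 contrasts between isoform lines (y axis), first line minus second, with bars of 1 SE. Dotted lines mark the fold needed for a call. CAV1 and CAV2 are negative in the 3 exon 1B contrasts and lie on both sides of 0 in the contrasts of isoforms 10-12 with 7-9.

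Because each isoform is 1 line, the classes were also compared with the 12 line means as the units. For isoforms 4-6 against isoforms 1-3, CAV1 was at 99.2 against 206 TPM, a difference of -1.10 ± 0.29 (SE, limma adjusted p = 0.0193). CAV2 was at 49.4 against 107 TPM, a difference of -1.14 ± 0.27 (SE, limma adjusted p = 0.0122). Both were called, beside 1.95% of tested genes. Without the filter on low values the limma adjusted p was 0.074 for CAV1 and 0.0523 for CAV2, and neither was called. EHD2 was at 25 against 34.6 TPM, a difference of -0.45 ± 0.076 with a limma adjusted p of 0.00389 but below the fold for a call, and CAVIN1 had -0.37 ± 0.13 (limma adjusted p = 0.0565). CAVIN2 was at 7.14 against 1.71 TPM (1.44 ± 0.67, SE, not tested), with 1.52, 13.5 and 6.42 TPM in the lines of isoforms 4, 5 and 6. For the P2 isoforms 7-9 against 1-3 the CAV1 value was 0.52 ± 0.29 (limma adjusted p = 0.253), where 0.52% of genes were called. In the contrasts of isoforms 10-12 with 7-9, of the insertion and of the short C-terminus, the smallest limma adjusted p among the 6 tested genes was 0.68, 1 and 0.141, and 0%, 0% and 0.00667% of all tested genes were called.

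The genes with a pattern most like that of CAVIN2 and CAV1 were sought among 1871 genes with a span of at least 1, by Pearson's r over the 13 group means on the log2 scale. For CAVIN2 they were RBPMS (an RNA-binding protein, r = 0.942), GAS7 (0.936), PLCH1 (a phospholipase C, 0.905), TTC9 (0.904) and NTN4 (netrin 4, 0.903). The most opposite were ADAP1 (-0.842), BCAR1 (the adaptor p130Cas, -0.824), PHLDA2 (-0.812), MICAL2 (-0.806) and S100A14 (-0.796). For CAV1, other than CAV2, the most alike were LOC107986838 (0.921), RPL13AP20 (0.907), EIF4EBP3 (0.842), OAS1 (0.831) and PLEKHN1 (0.823). The most opposite were CDKN1C (-0.92), SLC7A8 (-0.903), FGF19 (-0.901), LINC01405 (-0.897) and CNN1 (-0.888). Among the caveola genes themselves, CAVIN1 and EHD2 had r = 0.898 over the group means and 0.553 over the deviations within groups. CAV1 and CAVIN3 had 0.749 and 0.031. Other pairs differed in sign between means and deviations, such as CAVIN1 and PACSIN2 (-0.418 and 0.721) and CAVIN2 and EHD2 (-0.483 and 0.604). Over the 12 lines, r between HNF4A and each of the 7 genes was between -0.583 (EHD2) and 0.433 (CAVIN2). The lines share no libraries but do share the parental host and the fusion to GFP.

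The genes next to CAV1 and CAV2 on chromosome 7 had smaller differences. MET, which encodes the receptor of hepatocyte growth factor and follows CAV1, was at 29.8 TPM in the parental cells and had log2 fold changes between -0.57 and -0.14, short of the fold for a call. It was at -0.48 in the isoform 5 line, where CAV1 had -1.37, and at -0.45 in the isoform 11 line, where CAV1 had 0.65. CAPZA2, which follows MET, had values between -0.03 and 0.14. The neighbours of CAVIN2 were all below the filter, with means of at most 0.117 TPM. The neighbours of CAVIN1 that could be tested, STAT3 and ATP6V0A1, had values between -0.24 and 0.24. SMPD1, the acid sphingomyelinase gene next to CAVIN3 but for 1 gene, was called higher in the isoform 2 line, at 8.72 TPM ± 0.499 beside 3.8 TPM ± 0.22 in the parental cells (SD, n = 3; log2 fold change 1.02, limma adjusted p = 7.88e-15). In that line 2.36% of all tested genes were called higher. The tested neighbours of EHD2 (BICRA, NOP53 and SNORD23) had values between -0.27 and 0.49 and those of PACSIN2 (ARFGAP3 and TTLL1) between -0.32 and 0.26, and they were called in 0 lines.

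Other genes of the pathway were taken from 3 lists. Of 18 other caveola and membrane-bending genes, 16 were tested, and 1 gene was called higher and 1 lower in a line, out of 192 values. EHD1, a paralogue of EHD2 that acts in endocytic recycling, rose in the isoform 1 line from 34.9 TPM ± 1.13 to 80.3 TPM ± 5.47 (SD, n = 3; log2 fold change 1.18 ± 0.043, limma adjusted p = 1.05e-19). DNM1, a dynamin that cuts vesicles off the membrane, fell in the isoform 2 line from 13.8 TPM ± 0.648 to 4.21 TPM ± 0.213 (SD, n = 3; -1.50 ± 0.078, limma adjusted p = 4.17e-16). Short of the fold for a call, EHD1 was also higher in the isoform 2 line (0.97, limma adjusted p = 9.5e-18). DNM1 was likewise lower in the isoform 1 line (-0.85, limma adjusted p = 1.1e-10). Over all lines EHD1 had values between -0.33 and 1.18 and DNM1 between -1.50 and 0.17. In the isoform 1 line 2.74% of all tested genes were called higher, and in the isoform 2 line 1.37% were called lower. The muscle caveolin CAV3 was at most at a group mean of 0.0463 TPM and EHD3 at 0.0161 TPM, and neither was tested. CAVIN4, the muscle cavin, was at 1.3 TPM in the parental cells. DNM2, the ubiquitous dynamin, was between 90.4 and 98 TPM. Of the flotillins, which form other membrane domains, FLOT1 was between 91 and 123 TPM and FLOT2 between 105 and 128 TPM.

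Of 16 receptors and channels known from caveolae, 12 were tested, with 3 calls out of 144 values, all higher. Over all tested genes and the 12 lines, 0.94% of values were called higher, also for comparison with the next list. The insulin receptor INSR rose in the isoform 1 line from 10.6 TPM ± 0.945 to 25.1 TPM ± 0.494 (SD, n = 3; 1.17 ± 0.092, limma adjusted p = 3.75e-12). Over all lines INSR had values between 0.03 and 1.17. In the isoform 2 line it was at 0.92 (limma adjusted p = 7.45e-10), short of the fold for a call. The urokinase receptor PLAUR rose in the lines of isoforms 1 and 2, from 18.4 TPM to 47.9 and 52.3 TPM (1.34 and 1.46 ± 0.062, limma adjusted p = 2.6e-17 and 4.64e-18), where 2.74% and 2.36% of genes were called higher. All 15 clathrin coat and adaptor genes, which serve the main alternative uptake route, were tested, with 6 calls out of 180 values, all higher and all of FCHO2, an F-BAR protein that starts clathrin-coated pits. FCHO2 rose from 9.78 TPM ± 0.0252 in the parental cells to 31.2 TPM ± 2.34 in the isoform 1 line (SD, n = 3; 1.58 ± 0.12, limma adjusted p = 9.85e-13). It was also called in the lines of isoforms 2, 7, 8, 10 and 11, so that the log2 fold change was between 1.07 and 1.58 in 6 lines. In the lines of isoforms 7, 8, 10 and 11 genes called higher were 1.12%, 0.94%, 1.13% and 1.05% of all tested. The clathrin heavy chain CLTC was between 154 and 197 TPM.

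Most markers of cell types rich in caveolae were under 1 TPM in every library, and the sums of the lists came mainly from 1 gene each. Of 6 endothelial markers, 5 (CDH5, VWF, TEK, CLDN5 and EMCN) were under 1 TPM in every library, and the 6 summed to between 1.95 and 7.12 TPM, with 3.03 to 3.48 TPM in the parental cells. The sixth, PECAM1, was between 1.14 and 6.43 TPM. Of 6 fibroblast markers, 5 (COL1A2, COL3A1, DCN, LUM and PDGFRA) were under 1 TPM in every library, with sums of 7.83 to 15.6 TPM and 12.4 to 14.3 TPM in the parental cells. The sixth, COL1A1, was between 7.76 and 14.9 TPM. Of 6 adipocyte markers, 5 (ADIPOQ, PLIN1, LEP, FABP4 and CIDEA) were under 1 TPM in every library, with sums of 4.03 to 7.26 TPM. The sixth, LIPE, was between 3.72 and 7.07 TPM. Of 6 smooth muscle markers, MYH11, LMOD1 and MYOCD were under 1 TPM in every library, with sums of 13 to 24.8 TPM, while ACTA2 was between 9.91 and 22.1 TPM, with 13.1 TPM ± 0.651 (SD, n = 3) in the parental cells. Its highest means were 20.6 TPM in the isoform 10 line and 18.1 TPM in the isoform 5 line. CNN1, of the same list, was between 0.216 and 3.12 TPM. Its means went from 0.437 TPM in the isoform 7 line to 2.76 TPM in the isoform 5 line. The part of these markers in the caveolin and cavin values was not tested.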

How the data were processed

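Poly(A)-enriched, strand-preserving RNA-seq libraries were made from 39 samples, per the labels' protocols. The authors deposited 1 table per group with a TPM value per library. The submitters' processing notes name Trimmomatic 0.36, FastQC 0.11.5, kallisto 0.44.0, DESeq2 1.22.2 and GRCh38.p12, without roles or order. Which annotation was used is not given in the sources used here. Each deposited table of a line adds columns in which it is compared with the parental cells, per the file headers: the mean normalised count (a signal), the log2 fold change and its error, a score and p-values. These columns entered no fit. Read depth per library is unknown. Summed over a table, the mean normalised counts of the authors came to 50609338 to 56136330, and TPM came to 999972.6 to 999987.7 per library.

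Linear models were fitted to log2(TPM + 1) with limma 3.58.1 in R 4.3.3 (trend, Benjamini-Hochberg adjustment within a comparison), in 1 fit of all 39 libraries with 26 residual degrees of freedom. The filter kept rows whose mean was 1 TPM or more (15003 of 45435 rows). The scale understates fold changes of low genes. The median residual SD was 0.0936. The 12 HNF4A rows were summed, and names of 29 altered rows in the tables of isoforms 4 and 5 were taken from the parental table. Isoform classes were compared in a limma fit of 12 line means. In data simulated on 15003 genes for isoform 1 against parental, 98% of genes raised and 90% of genes lowered by 1.5 on the log2 scale were recovered, with 1 false call. For isoforms 4 and 5 the labels give 1 code to all 3 libraries, so these 6 libraries have no replicate number.

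The 7 genes, the lists, the contrasts and the markers were chosen with earlier results of these data known. Named are the 7 genes, their neighbours, list genes called in any line (and those of known role set beside them), and the 5 most alike and 5 most opposite genes to CAVIN2 and CAV1. Positions are from GENCODE 29 (GRCh38) and promoter windows from RefSeq (GRCh38.p14). Alternatives were the pseudocount, the filter, the scaling, the fold threshold, separate fits, a joint adjustment, a replicate block and leaving out libraries.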

Additional observations from a re-analysis of the deposited data

Results flagged for a closer look

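Of the tested differences between lines, 6 met the rule for a call and are given here because lines of related isoforms differ in the same gene. Between the lines of isoforms 4 and 1 the CAV1 difference was -1.37 and the CAV2 difference -1.44 on the log2(TPM + 1) scale. Between the lines of isoforms 5 and 2 they were -1.18 and -1.25. CAV1 differed by -1.09 between the lines of isoforms 12 and 9, and by 1.10 between those of isoforms 11 and 10. CAVIN2 was above the parental cells in every library of the isoform 5 line (0.44) and below in every library of the other 11 lines. Of all tested gene values over the 12 lines, 19% were above in this sense and 26.1% below. The difference in CAVIN2 between lines was not tested, since the gene was chosen for its pattern.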

How the results depend on the processing

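The 13 calls against the parental cells became 4 with a filter at a mean of 5 TPM, which removes CAVIN2, and 50 without a minimum fold change (of 84 values, where 30.7% of all tested values pass), and they stayed at 13 (lowest and highest) when single libraries were left out. The 6 calls between lines became 44 without a minimum fold change (of 102, where 25.3% of all pass) and were 5 to 7 in the leave-outs. The 11 calls of list genes were 11 to 12 in the leave-outs and 11 to 13 elsewhere. The 2 calls between classes became 0 without the filter on low values and were 2 in every leave-out. Of 117 single values 0 were called and then reversed in sign under an alternative, and 5 changed their call: besides the class values of CAV1 and CAV2, CAV1 between the lines of isoforms 11 and 10 (0.98 without the third isoform 10 library), CAV1 between isoforms 10 and 7 (-1.02 without the first isoform 10 library) and CAV2 between isoforms 12 and 9 (up to -1.04). Libraries with the same replicate number were weakly alike. Over 165 same-number pairs the median correlation of deviations was 0.054 (-0.175 to 0.232), beside -0.029 for different numbers. Of 33 numbered libraries, 29 were closest to their own number. The main fit has no term for this structure, and its source was not tested. With the replicate block, on the lines with numbered libraries, the calls stayed at 8 against the parental cells, 11 in the lists and 2 between lines. The class fit uses line means, so it has no block. TPM gives no counting interval, which limits what can be said of CAVIN2 below 1 TPM.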
